A study of Mus musculus with 4 samples.

Results

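Bone marrow single-cell transcriptomes of WT and YAP1 heterozygote mice were examined for 9 genes that encode receptors of the platelet surface: Gp1ba, Gp1bb, Gp5, Gp9, Gp6, Itga2b, Itgb3, Clec1b and Treml1. The genes were chosen by symbol, and all 9 were found among the 32544 genes of the count files, of which 22198 had at least 1 UMI (unique molecular identifier, 1 per captured transcript) in the kept cells. The mice were 10 weeks old, and nucleated marrow cells had been taken by flow sorting. There were 2 libraries with the genotype label WT and 2 labelled YAP1 heterozygote, and no further allele, treatment or sort gate was given in the sources used here. Nothing in the labels says that replicates came from separate mice.

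These receptors are how a platelet senses a damaged vessel. Gp1ba, Gp1bb, Gp9 and Gp5 encode the glycoprotein Ib-IX-V complex, which binds von Willebrand factor, and Itga2b and Itgb3 encode the integrin alpha and beta chains that bind fibrinogen once activated. Gp6 encodes the collagen receptor glycoprotein VI, Clec1b encodes a C-type lectin-like receptor for podoplanin, and Treml1 encodes a receptor kept in platelet granules and brought to the surface on activation. All are made by megakaryocytes, the marrow cells that shed platelets, and the integrin alpha chain (CD41) is also a classical surface marker of early blood progenitors.

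The bases just before the gene start are shown for Gp5, which was well above its stem cell level at the first step examined below, and for Gp6 and Clec1b, which were at 0 there. The choice was made after the levels were seen. The sequences are those of RefSeq on GRCm38.p6, each the 250 bases before the gene start, 5′ to 3′ on the strand of the gene. Capitals mark matches, on either strand, to AGATAA and its forms with a last G (AGATAG), a first T (TGATAA) or both (TGATAG), core letters bound by GATA factors, and to AGGAAG and its form with a first C (CGGAAG), core letters bound by ETS factors.
Gp5 (chr16:30310782-30311031, minus strand): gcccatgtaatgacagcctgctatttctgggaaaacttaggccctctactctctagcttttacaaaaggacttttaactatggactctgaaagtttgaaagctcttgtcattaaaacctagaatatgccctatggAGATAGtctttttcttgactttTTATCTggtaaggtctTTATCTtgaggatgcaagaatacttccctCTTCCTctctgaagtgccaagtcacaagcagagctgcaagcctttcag
Gp6 (chr7:4397745-4397994, minus strand): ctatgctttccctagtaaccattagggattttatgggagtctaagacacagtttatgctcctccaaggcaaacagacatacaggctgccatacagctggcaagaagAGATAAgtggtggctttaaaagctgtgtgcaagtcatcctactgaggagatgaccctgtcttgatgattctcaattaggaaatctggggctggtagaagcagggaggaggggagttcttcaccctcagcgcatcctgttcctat
Clec1b (chr6:129397047-129397296, plus strand): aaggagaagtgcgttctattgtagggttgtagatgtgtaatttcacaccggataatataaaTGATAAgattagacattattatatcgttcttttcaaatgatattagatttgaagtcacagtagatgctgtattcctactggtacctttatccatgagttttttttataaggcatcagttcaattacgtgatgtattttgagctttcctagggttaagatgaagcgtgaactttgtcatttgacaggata
Of the 9 members, 8 were found in the promoter table, and for 7 of these the window lay before the gene start of the GENCODE annotation. The window of Itga2b lay mostly inside its GENCODE gene, over 239 bases, and is left out. Of these 7 members, 5 held a GATA match and 4 an ETS match, while 26.5% and 39.2% of all 32851 promoters of the table did. The window of Gp1bb, counted in both, lay over all its 250 bases in an exon of the gene Septin5 on the same strand. Gp5 had 3 GATA matches and 1 ETS match, and Gp6 and Clec1b 1 GATA match each and no ETS match. Gp1ba also had 3 GATA matches. The RUNX word TGTGGT was found in 1 member, Gp9, and in 14.0% of all promoters. A match describes the letters of the window and shows no binding.

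The libraries held 112806900 to 119855112 UMIs, and 10571 to 13206 cells per library were kept (47555 in all), with median counts of 5517 to 6751 UMIs per cell. Pairs of libraries shared 21 to 56 cell barcodes, under 0.5% of the smaller library (0.199% to 0.493%). Yap1 itself had 6, 7, 0 and 6 UMIs in WT replicates 1 and 2 and YAP1 heterozygote replicates 1 and 2, too few to check the genotype labels, and the deposited counts do not separate alleles. The Y-linked gene Ddx3y was at 100 CPM (counts per 1000000 UMIs of the cells summed) and 67.9 CPM in replicate 1 of WT and YAP1 heterozygote and at most 0.0275 CPM in both replicates 2, and Xist was at 885 and 865 CPM in the replicates 2 and at most 0.13 CPM in the others. The 2 libraries of a group thus came from animals of different sex, and replicate number and sex cannot be told apart. One cluster of 980 mature neutrophil-like cells came almost entirely from WT replicate 1 (902 cells), and in WT replicate 2 the dividing megakaryocyte-like cells described below carried far more Ppbp than those of the other libraries. Results in megakaryocyte-like cells are therefore given with and without single libraries where these change them.

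Cells were clustered with the 9 receptor genes left out, so that their levels played no part in the cell classes. The megakaryocyte-like class held 418 cells (117, 119, 72 and 110 in the order of libraries above, or 0.942%, 1.05%, 0.681% and 0.833% of kept cells) with a median of 18805 UMIs, and was led by Pf4, Cavin2, Ctla2a, Rab27b and Vwf. Pf4, platelet factor 4, was at 8761 CPM over the class. The late markers were low: Ppbp, a chemokine of platelet granules, was at 79.4 CPM, and Tubb1, the tubulin of the platelet rim, had 9 UMIs in the 418 cells. The class thus carried the megakaryocyte label by Pf4, Vwf, Cavin2 and Rab27b, with the late marker Tubb1 near 0. The second clustering described below also set apart 65 cells led by the neutrophil genes S100a8, S100a9 and Camp. Another 31 cells had the B cell genes Ebf1 and Cd79a among their leading genes. Pf4 was at 2976 and 2892 CPM in these. The progenitor-like class held only 357 Pf4 UMIs, so most Pf4 UMIs of both lay in the megakaryocyte-like class. Neither is among the 5 stages, and the genotype tests were not run without them.

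Progenitor-like and megakaryocyte-like cells were clustered a second time to order the onset of the receptors. The stem cell-like sub-cluster (156 cells) was led by Hlf, Nkx2-3, Ly6a, Procr and Mecom. A sub-cluster of 74 cells whose leading genes included Apoe, F2r and Mfsd2b had no name under the marker rule and is called sub-cluster 5. Then came early (168 cells), dividing (180 cells, with Mki67 at 1115 CPM) and Ppbp-high (47 cells) megakaryocyte-like cells. The early cells were led by Pf4, Cavin2, Vwf and the basophil protease gene Prss34. Itga2b was also high in basophil or mast cell-like cells (below), and the part of basophil RNA in its early level was not tested. The order was set by hand from genes other than the receptors. With libraries pooled, Hlf fell from 601 to 50.6, 28.9, 25.6 and 22.7 CPM over these 5 stages, and Pf4 rose from 35.4 to 365, 6024, 9379 and 14990 CPM. Single libraries did not all order early before dividing cells. Pf4 went from 7210 to 6813 CPM in WT replicate 1 and from 5820 to 5877 CPM in YAP1 heterozygote replicate 1. It rose in the replicates 2 (5095 to 12540 and 5858 to 9485 CPM). Hlf rose at that step in both YAP1 heterozygote libraries (25.2 to 27.0 and 20.2 to 25.0 CPM) and fell in both WT libraries. In all libraries pooled, every receptor gene was higher at each stage than at the one before wherever it was detected, but the 9 genes left the stem cell level at different steps (the plot of levels by stage). The rise from early to dividing cells rested on WT replicate 2 for 3 genes: without it Itga2b went from 658 to 621 CPM, Gp9 from 96.3 to 88.8 CPM and Treml1 from 143 to 141 CPM. Without that library Gp1ba was also lower in sub-cluster 5 than in stem cell-like cells, and without WT replicate 1 Gp5 was lower in early cells than in sub-cluster 5. UMI counts at the 3′ end are not scaled by gene length, and levels are compared here within a gene across cells, not between genes.

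**Figure D1:**
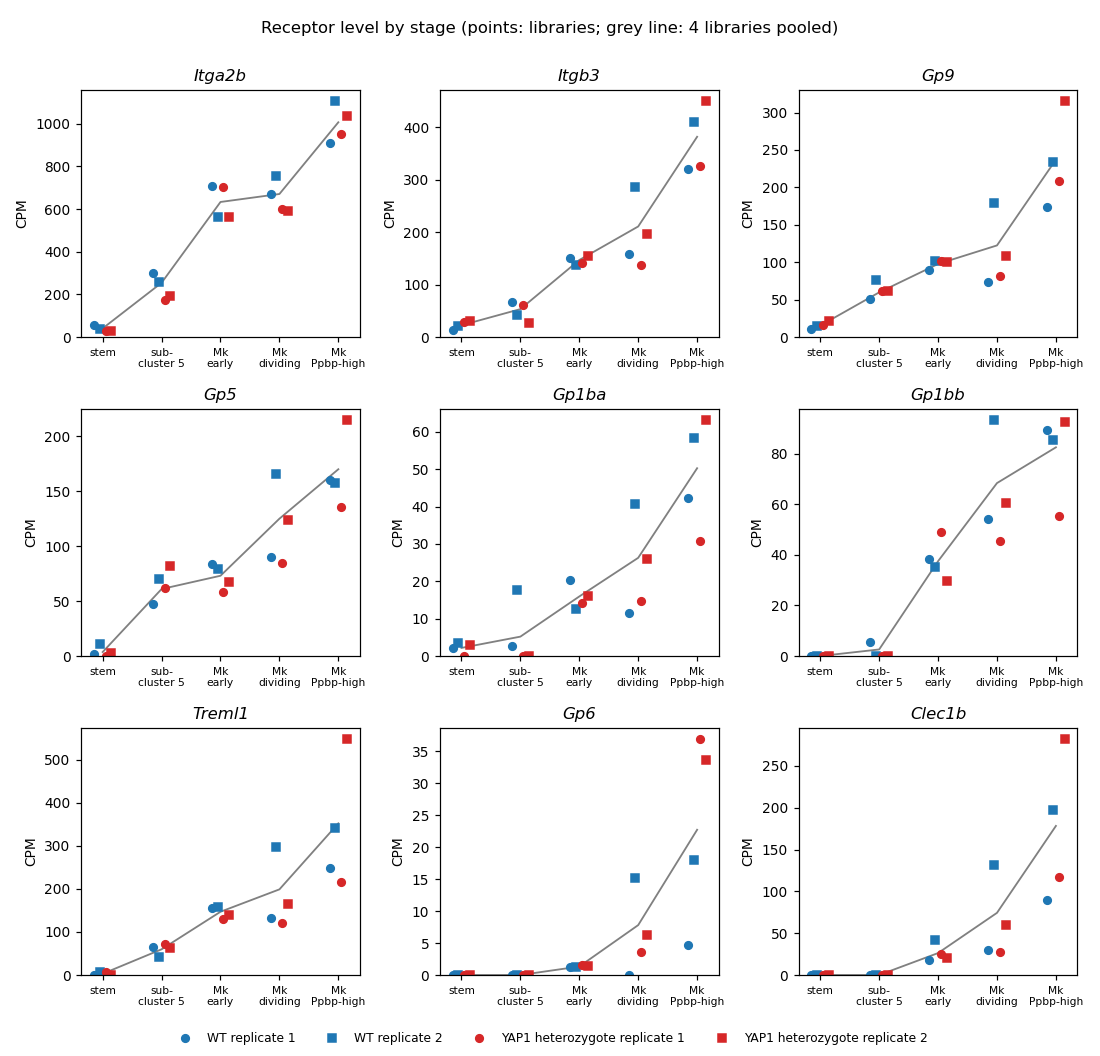
Level of the 9 receptor genes in CPM (vertical axis, linear, from 0) at 5 stages from stem cell-like to Ppbp-high megakaryocyte-like (Mk) cells. Points are the 4 libraries (blue WT, red YAP1 heterozygote; circles replicate 1, squares replicate 2) and the grey line is the level with the libraries pooled; Itga2b reached 254 CPM in sub-cluster 5, where Gp6 and Clec1b had no UMI.

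The integrin alpha chain was found in the most cells at the first steps. Itga2b was at 57.8, 38.7, 28.2 and 30.2 CPM in the stem cell-like cells of WT replicates 1 and 2 and YAP1 heterozygote replicates 1 and 2. In sub-cluster 5 it was at 300, 258, 174 and 191 CPM, above every stem cell-like value. It was at 633 CPM pooled in early, 671 CPM in dividing and 1007 CPM in Ppbp-high cells. An Itga2b UMI was found in 25.0% of stem cell-like cells, 86.5% of sub-cluster 5 cells and 100% of the early megakaryocyte-like cells. Its beta chain partner Itgb3 was at 13.3, 21.1, 28.2 and 30.2 CPM in the stem cell-like cells and at 67.3, 41.1, 61.5 and 27.3 CPM in sub-cluster 5, where the libraries overlapped with the stage before. Itgb3 then stood at 147, 211 and 382 CPM over the 3 megakaryocyte-like stages. Both chains were seen in 1 of 156 stem cell-like cells (0.641%), 36.5% of sub-cluster 5 cells and 87.6% of the megakaryocyte-like class.

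Within the glycoprotein Ib-IX-V complex the subunits came in a spread order. Gp9 was the subunit with the clearest level in stem cell-like cells, at 11.1, 14.1, 15.7 and 21.2 CPM (21 UMIs in 19 cells), and it was at 50.5, 76.3, 61.5 and 61.5 CPM in sub-cluster 5. Gp5, the subunit cut by thrombin, had 5 UMIs in stem cell-like cells (3.61 CPM pooled) but 47.7, 70.5, 61.5 and 82.0 CPM in sub-cluster 5, with no overlap between the stages. The ligand-binding subunit Gp1ba had 3 UMIs in stem cell-like cells and 4 in sub-cluster 5, and was at 15.9, 26.3 and 50.3 CPM in the 3 megakaryocyte-like stages. Gp1bb had no UMI in stem cell-like cells, which allows up to 2.17 CPM (3 UMIs, counting error only), and 2 UMIs in sub-cluster 5. It was at 38.2, 35.1, 48.9 and 29.7 CPM in early cells of the 4 libraries, above all values of the stages before. In stem cell-like cells Gp9 was thus at 12.2% ± 3.28 (SD over 4 libraries) of its megakaryocyte-like class level, and Gp1bb had no UMI.

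Gp6 and Clec1b were the last. Neither had a UMI in stem cell-like cells or in sub-cluster 5, where 0 allows up to 3.89 CPM. Clec1b was at 17.9, 41.3, 25.2 and 20.2 CPM in early cells, 29.9, 132, 27.0 and 60.4 CPM in dividing cells and 89.4, 198, 117 and 282 CPM in Ppbp-high cells. The replicates 2 stood above the replicates 1 at the last 2 stages in both genotypes. Gp6 had 4 UMIs in the 168 early cells and 33 UMIs in 7 of the 180 dividing cells, and was at 4.7, 18.0, 36.9 and 33.6 CPM in Ppbp-high cells (19 UMIs in 9 cells). Its share of cells with a UMI was 19.1% at that stage, the lowest of the 9 genes. Treml1 kept with the earlier group: 2.89 CPM in stem cell-like cells (4 UMIs), then 64.5, 41.1, 71.7 and 61.5 CPM in sub-cluster 5 and 352 CPM pooled in Ppbp-high cells.

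As a percent of the Ppbp-high level, sub-cluster 5 held 35.9% for Gp5, 25.3% for Itga2b, 25.2% for Gp9, 17.0% for Treml1, 13.9% for Itgb3, 10.3% for Gp1ba, 3.14% for Gp1bb and 0% for Gp6 and Clec1b. Pf4 was at 2.43% of its Ppbp-high level in the same cells and Vwf at 4.99%. A 0 in sub-cluster 5 allows up to 3.89 CPM, and Gp6 was at only 22.7 CPM in Ppbp-high cells. Gp1ba and Gp1bb had 4 and 2 UMIs in sub-cluster 5. At this step the place of Gp6 behind these 2 genes, and of Clec1b behind Gp1bb, was thus not resolved. At the early stage Itga2b was already at 62.9%, while Gp1bb, Gp5, Treml1, Gp9, Itgb3 and Gp1ba lay between 31.7% and 45.4%, Clec1b at 14.7% and Gp6 at 5.84%. The neighbours Gp5, Itga2b and Gp9 at the first step, and the 6 genes in the middle at the early stage, are not separated beyond the spread of the libraries. The Ppbp-high stage rests on 9 to 15 cells per library. Sub-cluster 5 held 36 and 14 cells of WT replicates 1 and 2, and 9 and 15 cells of YAP1 heterozygote replicates 1 and 2.

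**Figure D2:**
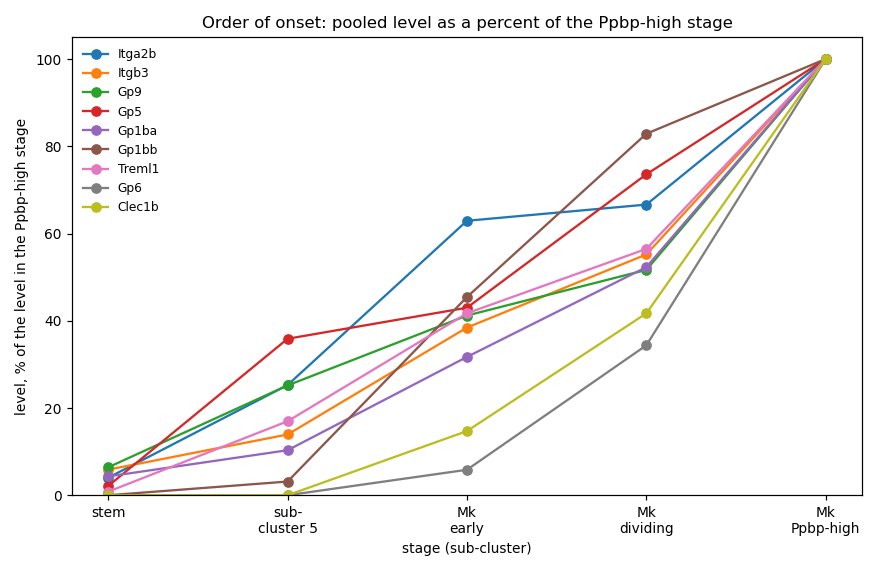
Pooled level of each receptor gene at 5 stages (horizontal axis) as a percent of its level in the Ppbp-high megakaryocyte-like stage (vertical axis, linear). Gp5, Itga2b and Gp9 lead in sub-cluster 5 with 35.9%, 25.3% and 25.2%. Gp6 and Clec1b had no UMI before the early megakaryocyte-like stage and are drawn at 0%, which is limited by depth.

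An ordering of single cells by diffusion pseudotime, also built without the receptors, again put Itga2b among the first genes, and Gp6 and Clec1b among the last together with Gp1ba and Gp1bb. Stem cell-like and megakaryocyte-like cells were put in 6 bins of equal size. Itga2b passed 50% of its highest bin level in bin 3 in each of the 4 libraries, and Clec1b in bin 4 in each. Gp6 did so in bins 4, 4, 4 and 5, and Gp5, Gp9, Itgb3 and Treml1 with the libraries pooled in bin 3, the same bin as Itga2b. The libraries differed by up to 3 bins for Gp1ba (bins 4, 5, 2 and 4), so its place in the order was not resolved. Gp1bb did so in bins 4, 5, 3 and 4, close to Clec1b. With sub-cluster 5 added to the axis, Itga2b again passed 50% in bin 3 in all libraries. Clec1b did in bins 5, 5, 4 and 5, Gp6 in bins 4, 6, 5 and 5, and Gp1bb in bins 4, 5, 4 and 5. On that axis Gp5 passed 50% in bin 4 in each library. With the libraries pooled, Itgb3 and Treml1 also moved to bin 4, the pooled bin of Gp1ba and Gp1bb, and Gp9 stayed in bin 3. Levels in stem cell-like cells rest on few UMIs: leaving out the cell with the most UMIs of the gene in each library and class took Gp1ba from 8.89% to 0%, Gp5 from 3.30% to 0.751% and Treml1 from 1.47% to 0.422% of the megakaryocyte-like class level.

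Receptors were rarely seen all together in a cell. Of the 418 megakaryocyte-like cells, 70 (16.8%) held a UMI of each of the 4 subunits of the glycoprotein Ib-IX-V complex, 11 held all 9 genes, and the median cell held 5 of the 9. When each cell was thinned to 2000 UMIs (404 cells), none held the 4 subunits and 18.6% held both integrin chains, compared with 87.6% unthinned. Co-detection thus moved with depth, and a missing UMI does not show that a cell lacks a subunit.

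Outside the megakaryocyte-like class the 9 genes spread very unequally. Of all UMIs in kept cells, 73.6% of those of Itgb3, 51.7% of Clec1b, 47.4% of Gp9, 38.6% of Itga2b, 33.0% of Gp6, 29.2% of Gp5, 26.7% of Gp1ba, 19.5% of Gp1bb and 7.72% of Treml1 lay in other classes. These shares depend on the numbers of cells of each class, since the megakaryocyte-like class was only 418 of 47555 cells, so levels per class follow (the map of levels by class). No correction for RNA from outside the cell was made, and its part in low levels was not tested. S100a9, a neutrophil gene, was found in all 156 stem cell-like cells, at 1080 CPM. Per 100 Pf4 UMIs there were 0.906 Ppbp UMIs in the megakaryocyte-like class. The number was 33.3 in basophil or mast cell-like, 26.9 in B cell-like and 0.612 in erythroid progenitor-like cells.

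**Figure D3:**
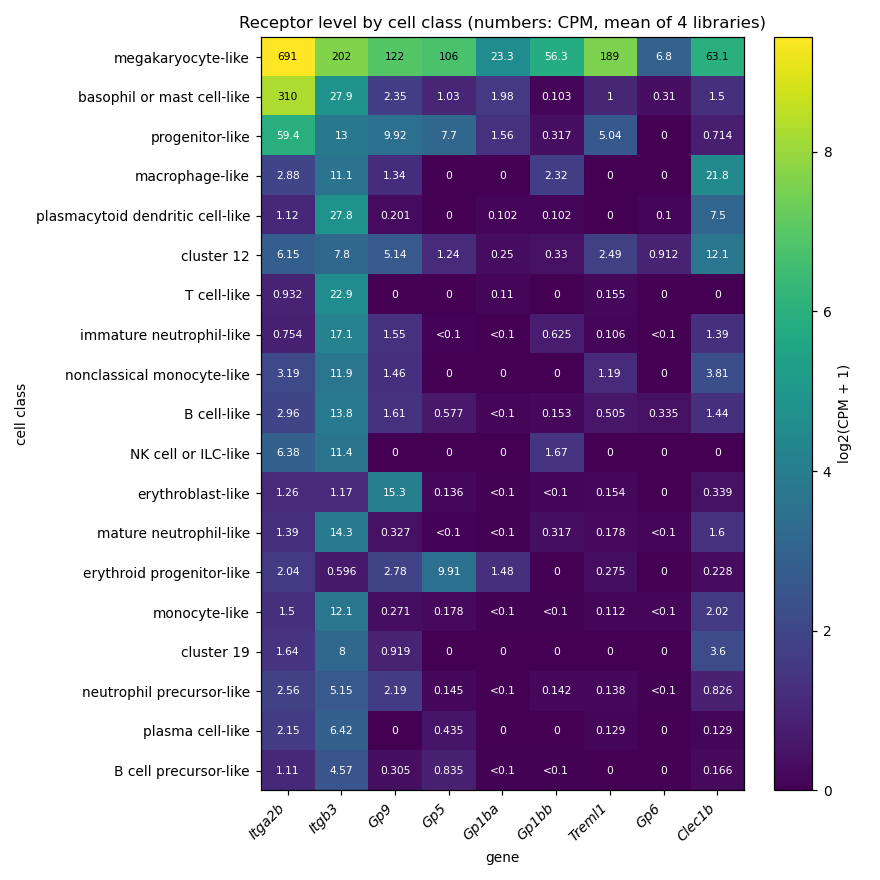
Level of the 9 receptor genes (columns) in 19 cell classes (rows), as the mean CPM of 4 libraries printed in each field and coloured by log2(CPM + 1). Every gene is highest in the megakaryocyte-like class; Itga2b reaches 310 CPM in the basophil or mast cell-like class and Gp9 15.3 CPM in the erythroblast-like class.

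Itga2b was high in a second class. In basophil or mast cell-like cells (935 cells, led by Prss34, Mcpt8 and Cpa3) it was at 323, 295, 308 and 313 CPM in the 4 libraries (310 ± 11.6, SD, n = 4), 44.8% of the megakaryocyte-like level (691 ± 43.6 CPM), and the libraries of the classes did not overlap. An Itga2b UMI was found in 76.8% of these cells at a median of 5812 UMIs. Thinned to 2000 UMIs the share was 44.3% (exact 95% interval 41.0% to 47.6%, counting error only), against 69.6% of megakaryocyte-like cells and 0.226% of erythroblast-like cells. Pf4 was at 7.19 CPM there, so that 100 Pf4 UMIs came with 4313 Itga2b UMIs, compared with 7.91 in the megakaryocyte-like class. None of the other 8 genes exceeded 27.9 CPM in this class, the level of Itgb3. Progenitor-like cells came next, at 59.4 ± 9.34 CPM. In the second clustering Itga2b was at 254 CPM in sub-cluster 5, whose cells lay partly in the progenitor-like and partly in the megakaryocyte-like class. It was at 114 CPM in cells led by the eosinophil genes Prg2, Prg3 and Epx and at 78.0 CPM in cells led by the erythroid gene Car1. In 2 sub-clusters led by Dntt, a gene of early lymphoid cells, it was at 13.4 and 25.1 CPM. In the remaining 16 classes Itga2b was at most 6.38 CPM.

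Itgb3 had the largest share outside the class of the 9 genes, and was found in classes where its partner chain was low. It was at 27.9 ± 9.03 CPM in basophil or mast cell-like, 27.8 ± 1.99 CPM in plasmacytoid dendritic cell-like, 22.9 ± 3.42 CPM in T cell-like and 17.2 ± 2.66 CPM in immature neutrophil-like cells (SD, n = 4). Plasmacytoid dendritic cell-like cells (26.0 to 30.6 CPM over the libraries) lay above T cell-like cells (18.1 to 25.8 CPM), while basophil or mast cell-like cells overlapped with both, and T cell-like with immature neutrophil-like cells. Itga2b was at 1.12 and 0.932 CPM in the plasmacytoid dendritic cell-like and T cell-like classes. Erythroid progenitor-like and erythroblast-like cells were the lowest for Itgb3, at 0.596 ± 0.0814 and 1.17 ± 0.594 CPM. The beta chain also pairs with the integrin alpha V chain in many cells, as background.

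Gp9 and Gp5 were also found in the erythroid line, at different stages. Gp9 was at 14.2, 15.6, 15.6 and 15.8 CPM in erythroblast-like cells, 12.6% of its megakaryocyte-like level, but at 2.78 ± 1.28 CPM in the erythroid progenitor-like class. Gp5 showed the reverse, with 7.94, 10.8, 8.11 and 12.8 CPM in erythroid progenitor-like cells and 0.136 CPM in erythroblast-like cells. In progenitor-like cells Gp5 was at 7.70 ± 1.64 CPM (6.15 to 9.14 CPM over the libraries), which overlapped with the erythroid progenitor-like cells. The libraries did not overlap between the 2 erythroid classes for either gene. In erythroblast-like cells Pf4 was at 2.94 CPM, and 100 Pf4 UMIs came with 529 Gp9 UMIs compared with 1.42 in the megakaryocyte-like class. In erythroid progenitor-like cells Pf4 was 41.3 CPM in YAP1 heterozygote replicate 2 and at most 5.45 CPM in the other 3 libraries, while Gp5 was at least 7.94 CPM in each of those. A Gp9 UMI was found in 24.6% of erythroblast-like cells (3.28% thinned), and in 1.6% of basophil or mast cell-like cells (0.763% thinned) at a median of 18867 and 5812 UMIs. Gp1ba was at 1.48 ± 0.384 CPM in erythroid progenitor-like cells (27 UMIs), and Gp1bb had no UMI there.

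Clec1b was spread over myeloid classes. It was at 21.8 ± 9.32 CPM in macrophage-like cells (19 UMIs in 381 cells), 12.1 ± 7.72 CPM in cluster 12 (no name under the marker rule; led by H2-Eb1, H2-Aa, Cd209a and C1qb) and 7.5 ± 2.82 CPM in plasmacytoid dendritic cell-like cells. The 3 classes overlapped. Pf4 was at 132 and 52.2 CPM in the macrophage-like cells and cluster 12, and Ppbp was at 12.8 CPM in cluster 12 and had no UMI in macrophage-like cells. Per 100 Pf4 UMIs there were 12.8 Clec1b UMIs in macrophage-like cells, 25.2 in cluster 12 and 0.77 in the megakaryocyte-like class. Clec1b (chromosome 6, 129397297 to 129409335, plus strand, GRCm38) overlaps the start of Clec9a by 474 bases on the same strand. Clec9a, a dendritic cell lectin, was at 43.0 CPM in plasmacytoid dendritic cell-like cells, 30.9 CPM in cluster 12 and 0.892 CPM (1 UMI) in macrophage-like cells. Clec1b in the plasmacytoid dendritic cell-like class and cluster 12 is uncertain, since reads of the overlapping genes could be assigned to either.

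The remaining 3 genes had few UMIs outside the megakaryocyte line. Treml1 was the most restricted, with 5.04 ± 1.82 CPM in progenitor-like cells as its next class (2.67% of the megakaryocyte-like level) and 46.5% of its 142 outside UMIs there. Gp6 had 30 UMIs outside, of 91 in all, with the most in B cell-like cells (7). By level its highest other class was cluster 12, at 0.912 ± 0.826 CPM (5 UMIs), 13.4% of the megakaryocyte-like level. Gp1bb had 70 of its 121 outside UMIs (57.9%) in immature neutrophil-like cells, at 0.625 ± 0.0274 CPM. Gp1bb (chromosome 16, 18620317 to 18622403, minus strand) overlaps Septin5 by 1902 bases and the gene model Gm49601 by 1938 bases, both on the same strand. Septin5, a cytoskeletal GTPase gene, was at 14.3 CPM in that class and 0.693 CPM in the megakaryocyte-like class, where Gp1bb was at 56.3 ± 12.3 CPM. Gp1bb values in neutrophils are uncertain, since reads of the overlapping genes could be assigned to either.

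The genes with the most similar pattern over 19 classes (Pearson correlation of log2(CPM + 1), among genes at 20 CPM or more in the megakaryocyte-like class) were few and differed between members. Treml1 was closest to Cavin2 (r = 0.991), a caveolar coat gene, and Trpc6 (r = 0.969), a calcium channel gene. Gp1ba and Gp5 were closest to each other among the members (r = 0.94) and shared Ltbp1 and Cavin1. Gp9 was closest to Vwf (r = 0.897), Itga2b to Prkg1 (r = 0.92) and Gata2 (r = 0.892), Gp1bb to Kcnj5 (r = 0.927), Gp6 to Proser2 (r = 0.943), Clec1b to Pf4 (r = 0.829) and Itgb3 to Fli1 (r = 0.813). Classes share libraries and the many genes at 0 raise such values, so they are descriptions only. Gata2, a transcription factor gene of basophils, mast cells and megakaryocytes, was also a marker used to name the basophil or mast cell-like class.

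YAP1 heterozygote and WT libraries were compared in the megakaryocyte-like class to see whether the receptors changed with genotype. None of the 9 genes passed the test, and 8 had a lower and 1 (Gp6) a higher estimate in YAP1 heterozygotes. Across the 9680 genes tested, 1 was called (0.0103%) at an adjusted p below 0.05 by edgeR's quasi-likelihood test with Benjamini-Hochberg adjustment, 230 had an unadjusted p below 0.05, and DESeq2 called 1. The gene called by edgeR was Prss34, a basophil protease gene, named here after its values were seen, at 147 and 67.2 CPM in WT and 6.92 and 1.84 CPM in YAP1 heterozygotes. No member was under 0.05 unadjusted in either tool. The median log2 fold change (YAP1 heterozygote over WT) of the 9 members was -0.24, beside 0.00 (-0.00316) over all genes tested.

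Itga2b was at 700 and 735 CPM in WT and 699 and 631 CPM in YAP1 heterozygotes, which gave a log2 fold change of -0.10 (SE 0.13, 95% interval -0.38 to 0.18, adjusted p 0.9996 by edgeR). It was the only member whose groups did not overlap, by 1 CPM between 2 libraries, and 29.2% of all genes tested did not overlap between groups. Itga2b was also high in basophil or mast cell-like cells, and 6 of the 7 markers of that list were lower in both YAP1 heterozygote libraries than in either WT library of the megakaryocyte-like class. The list summed to 606 and 347 CPM in WT and 263 and 227 CPM in YAP1 heterozygotes, most of it Gata2, which megakaryocytes make as well. Ms4a2, Fcer1a and Cd200r3 had no UMI in YAP1 heterozygote replicate 1. The part of basophil RNA in the Itga2b values was not tested. Itgb3 was at 175 and 254 CPM in WT and 166 and 213 CPM in YAP1 heterozygotes (log2 fold change -0.17, SE 0.18). Gp9 was at 89.5 and 160 CPM against 108 and 129 CPM (-0.07, SE 0.23). Gp5 was at 94.9 and 137 CPM against 82.4 and 111 CPM (-0.25, SE 0.20). For these 3 genes, the range of WT enclosed or overlapped that of the heterozygotes.

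Gp1ba was at 18.5 and 32.9 CPM in WT and 15.1 and 26.7 CPM in YAP1 heterozygotes (log2 fold change -0.27, SE 0.32). Gp1bb was at 47.9 and 74.7 CPM against 51.6 and 51.1 CPM (-0.26, SE 0.22), and Treml1 at 155 and 257 CPM against 144 and 201 CPM (-0.24, SE 0.22). Clec1b was at 31.2 and 109 CPM against 35.9 and 75.9 CPM (-0.31, SE 0.45), and Gp6 at 1.81 and 10.8 CPM against 6.29 and 8.28 CPM (0.18, SE 0.63, 61 UMIs in all). The adjusted p was 0.9996 for all 9 members. The 95% intervals (Itgb3 -0.57 to 0.23, Treml1 -0.73 to 0.24, Clec1b -1.29 to 0.67) leave room for moderate changes in either direction. In simulated data of this class the test found 58.4% of genes changed 2-fold and 92.6% of genes changed 4-fold. The simulated spread followed the trend over all genes, without a separate effect of replicate number or sex. These rates are averages over genes and do not give the power for the 9 members.

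**Figure D4:**
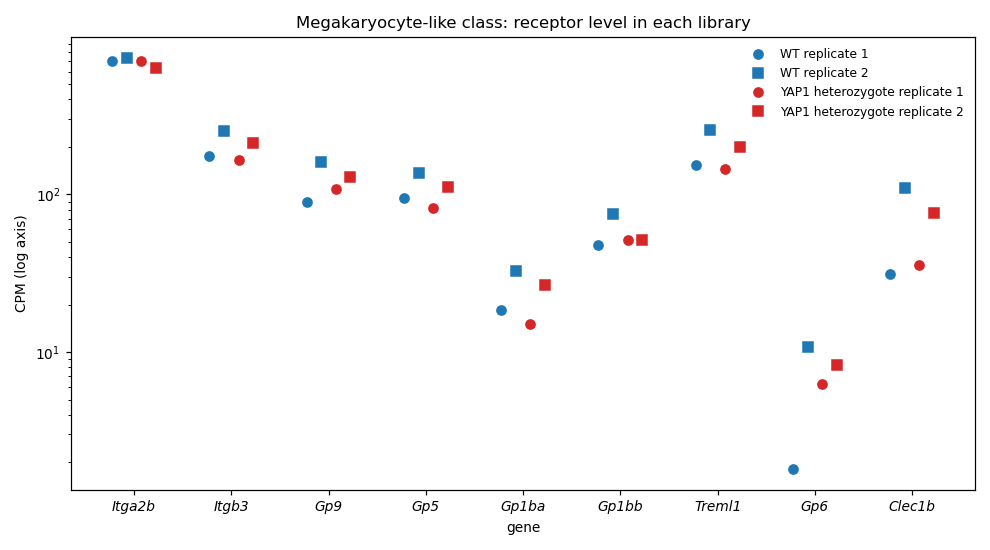
Level of the 9 receptor genes in the megakaryocyte-like class, in CPM on a log axis, with 1 point per library (blue WT, red YAP1 heterozygote; circles replicate 1, squares replicate 2). The squares lie above the circles for most genes in both genotypes, as for Clec1b with 31.2 and 109 CPM in WT and 35.9 and 75.9 CPM in YAP1 heterozygotes.

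The receptors differed between replicate numbers in the same direction in both genotypes. All 9 genes were higher in replicate 2 than in replicate 1 of WT, and 7 of 9 were in the YAP1 heterozygotes, while 45.6% and 47.8% of all genes tested were. Within replicate 1, 5 of 9 members had the lower value in the YAP1 heterozygote (52.1% of all genes tested did) with a median log2 ratio of 0.00 (-0.00188), and within replicate 2 all 9 did (49.8% of all genes) with a median of -0.31. Ppbp was at 22.6 and 138 CPM in WT and 37.1 and 96.1 CPM in YAP1 heterozygotes, and Selp at 24.0 and 69.8 against 23.3 and 65.8 CPM. Replicate number, sex and the level of these platelet granule genes moved together, and their part in the result cannot be told apart. Without WT replicate 2 the members' median became 0.20 with 8 of 9 higher. Without WT replicate 1 it became -0.55 with 9 of 9 lower and 1 member called, Clec1b (log2 fold change -0.93, edgeR adjusted p 0.0441). Without YAP1 heterozygote replicate 1 it was 0.00 (0.00157) with 5 of 9 higher. The direction of the members thus rested on single libraries.

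The stages were examined one at a time, chosen after the classes were seen. In early megakaryocyte-like cells (0.201% of genes called), 5 of the 8 members tested were lower in YAP1 heterozygotes with a median of -0.05. In dividing cells (0% called) all 8 tested were lower with a median of -0.46, no member passed, and the lowest unadjusted edgeR p was 0.0652 for Treml1 (131 and 296 CPM in WT, 121 and 166 CPM in YAP1 heterozygotes). WT replicate 2 was the highest of the 4 libraries for each of the 9 members at that stage, and Ppbp was at 197 CPM there and 6.9 to 12.5 CPM in the other libraries. The Ppbp-high stage had under 20 cells in each library and was not tested. There 6 of 9 members had a higher mean in YAP1 heterozygotes (Gp5, Gp9, Gp6, Itgb3, Clec1b and Treml1). The groups did not overlap for 1 of 9, Gp6, at 4.7 and 18.0 CPM in WT and 36.9 and 33.6 CPM in YAP1 heterozygotes on 19 UMIs. Members without overlap numbered 3 in stem cell-like cells, 2 in sub-cluster 5, 3 in early and 1 in dividing cells. No minimum of UMIs was set for these counts. Among them, Gp6 in early cells had 1 UMI in each library. Gp1ba in sub-cluster 5 had 1 and 3 UMIs in WT and 0 in both YAP1 heterozygote libraries. The share over all genes was not computed for single stages, and was 29.2% in the whole megakaryocyte-like class. No result about the members is therefore drawn from the stage counts. Of the cells in the 3 megakaryocyte-like stages, 40.0% to 44.7% were early and 41.35% to 50.4% dividing over the libraries. The Ppbp-high share was 11.65% and 9.57% in WT and 12.3% and 14.4% in YAP1 heterozygotes. It rested on 12, 11, 9 and 15 cells and was not tested. In stem cell-like cells only Itga2b could be tested (0.0184% of genes called): 57.8 and 38.7 CPM in WT and 28.2 and 30.2 CPM in YAP1 heterozygotes, a log2 difference of -0.80 (SE 0.41, adjusted p 0.9998 by edgeR).

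In all kept cells summed, 8 of 9 members had lower estimates in YAP1 heterozygotes and none of 15575 genes was called by edgeR (0%), with 420 under an unadjusted p of 0.05 and 17 called by DESeq2, none of them a member. The members' median was -0.31, and became 0.11 with 5 higher and 4 lower without WT replicate 2, and -0.09 with 3 higher and 6 lower without YAP1 heterozygote replicate 1. Itga2b had the lowest unadjusted p of the members (25.2 and 25.8 CPM in WT, 20.6 and 18.7 CPM in YAP1 heterozygotes; log2 fold change -0.36, SE 0.09, edgeR unadjusted p 0.00865, adjusted p 0.9994). In such a sum fewer cells of a type and less RNA per cell cannot be told apart, and the megakaryocyte-like class itself was 0.942% and 1.05% of WT and 0.681% and 0.833% of YAP1 heterozygote cells. The basophil or mast cell-like class, the next highest for Itga2b, was 2.46% and 1.87% of WT and 2.51% and 1.15% of YAP1 heterozygote cells. Across 19 classes with at least 20 cells in each library, 44 pairs of member and class could be tested in 15 classes. None was called by edgeR, 25 were higher and 19 lower in YAP1 heterozygotes, none had an unadjusted p below 0.05, and DESeq2 called none. Of all genes tested, edgeR called none (0%) in the cluster 12, erythroblast-like, erythroid progenitor-like, immature neutrophil-like, mature neutrophil-like and neutrophil precursor-like classes. It called 0.0183% in B cell precursor-like, 0.0199% in B cell-like, 0.0549% in basophil or mast cell-like, 0.00883% in monocyte-like, 0.102% in nonclassical monocyte-like and 0.104% in progenitor-like cells. The share was 0.12% in NK cell or ILC-like, 0.205% in cluster 19, 0.242% in plasma cell-like, 0.277% in plasmacytoid dendritic cell-like, 0.413% in T cell-like and 0.584% in macrophage-like cells. These counts moved with the fit: a replicate block gave 266 calls in mature neutrophil-like, 223 in immature neutrophil-like, 115 in neutrophil precursor-like, 30 in erythroblast-like, 7 in erythroid progenitor-like cells and 0 in cluster 12, and erythroid progenitor-like cells had 549 without WT replicate 2. No member was called in any class with the block, nor outside the megakaryocyte-like class with a library left out.

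Of 49 pairs of member and class with at least 3 UMIs in every library, 7 had groups that did not overlap, 2 with the YAP1 heterozygotes higher and 5 lower. Besides Itga2b in the megakaryocyte-like class these were Itgb3 in B cell-like (higher) and nonclassical monocyte-like cells, Gp9 in progenitor-like cells (higher), Itga2b in neutrophil precursor-like, Gp1ba in erythroid progenitor-like and Clec1b in macrophage-like cells. Of all genes with as many UMIs, 32.7%, 30.6%, 30.3%, 28.5%, 35.6% and 36.7% did not overlap in these 6 classes, in that order, so the members' share of 7 in 49 was not above it.

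The genes that work with these receptors were read from 2 lists. Of 26 genes for receptor partners and signalling (kinases, adaptors and integrin activators such as Syk, Lcp2 and Fermt3), all were tested and none passed, with 8 higher and 18 lower estimates and a median of -0.05. The most abundant were Rap1b, a small GTPase that switches the integrin on, with a WT level of 1477 ± 74.9 CPM and a heterozygote level of 1413 ± 52.3 CPM (SD, n = 2), then Tln1 (talin, log2 fold change -0.01), Fermt3 (kindlin-3, -0.23) and Ywhaz (-0.04). Of 28 other platelet receptor genes, 23 were tested and none passed, with 7 higher and 16 lower and a median of -0.10. Cd9 was at 653 ± 116 and 605 ± 44.4 CPM, and F2r, the thrombin receptor, at 258 ± 45.2 and 219.5 ± 0.165 CPM. Itgb1 and Itga6, integrin chains for collagen and laminin, differed by -0.10 and 0.03.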

How the data were processed

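The files held UMI counts per gene and cell barcode from droplet 3′ RNA sequencing (10x Genomics kit version 3.1, per the labels' protocols). These deposited counts were raw whole numbers, written by Cell Ranger 5.0.0 per the file headers, while the submitters' processing notes name Cell Ranger 3.0.0, Seurat 4.3.0 and GRCm38. Whether counting used strand is not stated there. The filter on cells asked for 500 UMIs, 200 genes and no more than 10% mitochondrial UMIs, and Scrublet doublets (3.43% to 4.49% per library) were removed.

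Counts scaled per cell gave 2000 variable genes, 30 principal components, 15 neighbours and Leiden clusters at resolution 1 (scanpy 1.11.5), without the 9 receptors. A cluster was named from fixed marker lists: of the 3 best-scoring lists the one with the most markers among its top 10 genes, with at least 3 markers at 20 CPM and 1 of them among the 4 leading genes. Names and shares are rebuilt here and may differ from the authors' own.

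UMIs were summed per library and class, and the 2 libraries of each genotype were tested in edgeR 4.0.16 by its quasi-likelihood test (filterByExpr, TMM, Benjamini-Hochberg over all genes of a class). DESeq2 1.42.0, RLE factors, no low-count filter, a replicate block, reclusterings and left-out libraries were the alternatives. The test was checked on simulated data for the megakaryocyte-like class, where it called 0.0818% of unchanged genes. These simulated data held no separate effect of replicate number or sex. With 2 against 2 libraries an exact two-sided permutation test cannot go below 0.333, so none is given, and p-values measure the spread between these libraries. No test was made between clusters.

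Named genes were the 9 members, the leading genes of clusters, the closest genes of each member over classes (3 were ranked, fewer are printed), and the 4 most abundant genes of each pathway list, since none was called. Genes outside this rule (Selp, Clec9a, Septin5, Prss34) were named after their values were seen. The members and lists were chosen with earlier results of these data known. Gene positions are from GENCODE M21 (GRCm38) by Ensembl identifier. Intervals and the limit of 3 counts for a 0 cover counting error only.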

Additional observations from a re-analysis of the deposited data

Results flagged for a closer look

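Itgb3 lay on opposite sides in 2 classes, with both WT libraries on one side of both YAP1 heterozygote libraries in each. In B cell-like cells its YAP1 heterozygote mean was higher (log2 ratio 0.26), where 32.7% of all genes with at least 3 UMIs in every library had groups that did not overlap. In nonclassical monocyte-like cells it was lower (log2 ratio -0.46, on 37 UMIs in all), where 30.6% of such genes did not overlap. Neither difference passed a test, and the difference between the classes was not tested.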

How the results depend on the processing

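No member passed the threshold in the megakaryocyte-like class under DESeq2, RLE factors, no low-count filter or the replicate block. None did with 2 other Leiden resolutions, receptors kept in the clustering, doublets kept or a mitochondrial limit of 20%. The split stayed 8 lower and 1 higher in each of these settings. With receptors kept in the clustering the class tested held 664 cells, 418 of them shared with the main class. The members' median log2 fold change was -0.24 and ranged from -0.55 to 0.20 when single libraries were left out; members called ranged from 0 to 1, both in this class and over all classes, and so did pathway genes called; both single calls came without WT replicate 1. With single libraries left out, the log2 fold change ranged from -0.99 to 0.91 for Clec1b, -0.78 to 0.24 for Gp1ba, -0.49 to 0.069 for Gp5, -0.55 to 2.02 for Gp6, -0.44 to 0.44 for Gp9, -0.42 to 0.15 for Itgb3 and -0.57 to 0.20 for Treml1; the highest value of each came without WT replicate 2. Gp1bb turned to 0.13 without that library. Genes called in the class numbered 1, but 35 with no filter, 0 with receptors kept in the clustering and 3 to 61 without single libraries. In all kept cells they numbered 0, 17 with DESeq2 and 0 to 165 without single libraries; the cause was not tested.

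Replicate number went with sex in both genotypes, and the main test did not include it. Beyond sex, replicate numbers were not shown to pair the libraries, since there were 2 pairs only (correlation of same-numbered deviations 0.151 in this class and 0.483 in all cells). With a replicate block 9 genes and no member were called in the class.

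The median over members of the stem cell-like level was 3.3% of the megakaryocyte-like level, and moved to 0.866% at resolution 1.5, 0.973% with doublets kept, 0.422% without the top cells and 1.87% without WT replicate 2. The median share outside the class was 33.0% and ranged from 30.1% to 42.1% when a library was left out. Treml1 outside fell from 7.72% to 3.64% with receptors kept in the clustering, where the megakaryocyte-like class was larger (664 cells). Resolution 0.6 gave no stem cell-like cluster. Depth limits all levels in stem cell-like cells (156 cells).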
